A study of Mus musculus with 16 samples.

Results

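The DNA replication machinery is the set of 42 genes that encode the proteins which mark replication origins, load and start the helicase, copy the DNA and join the new strands. The genes were taken from a list of replication origin, helicase, clamp and polymerase genes by symbol, out of 54838 genes with a count per sample, and all 42 were found. Their messenger RNA was measured by sequencing in whole liver of male wild type C57BL/6J mice in 4 groups. In the injection experiment, the CCl4 group (n = 3) received carbon tetrachloride mixed with olive oil in equal volumes, and the olive oil group (n = 3) received olive oil, in both cases by intraperitoneal injection of 2 µL per g, and livers were taken 3 days later. In the surgical experiment, the PH day 0 group (n = 5) is the piece of liver resected in partial hepatectomy (PH), surgery that takes out a portion of the organ, and the PH day 3 group (n = 5) is the liver collected 3 days after surgery. The labels give no age of the mice. They also do not say whether samples of 1 group came from separate animals, so p-values measure the spread between these samples, which may be technical. PH samples carry replicate numbers 12 to 16 on both days. Whether a number marks the same mouse on both days is not stated in the labels, and the main fits treat the samples as unpaired.

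Before a cell divides, the origin recognition complex (ORC) with the loading factors CDC6 and CDT1 places a ring of the proteins MCM2 to MCM7 on DNA at each origin. The kinase pair CDC7 and DBF4, with CDC45 and the GINS complex, turns this ring into an active helicase, and DNA polymerases held by the sliding clamp PCNA then copy both strands, one of them in short Okazaki fragments that are trimmed and ligated. In adult liver most hepatocytes are at rest, and they re-enter the cell cycle after loss of tissue by a toxin or by surgery. CCl4 is a solvent that hepatocytes around the central vein convert to a toxic radical. Many replication genes are known targets of the E2F transcription factors, which bind sites of the type TTTGGCGC or TTTCCCGC near the start of a gene.

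Promoters from RefSeq on GRCm38.p6, covering 250 bases before to 50 bases after a start, were matched by symbol to 34 of the 42 genes. The letters searched, on both strands, were TTTGGCGC, TTTCCCGC, TTTGGCGG and TTTCCCGG for E2F. At least 1 of these was found in 16 of 41 promoters of the members, 39.0%, and in 1092 of 32851 promoters of the table, 3.32%. Counted by gene, since 6 members have more than 1 promoter, it was 16 of 34 members. Promoters rich in the base pair CG hold these letters more often: among the 11378 promoters with at least 15 CG steps the share was 6.83%, and it was 45.2% among the 31 member promoters of that kind. The CCAAT box, searched as CCAAT, was found in 58.5% of member promoters and in 37.4% of all promoters. The element TTTGAA, found at genes of late cell cycle, was held by 19.5% of member promoters and 17.9% of all promoters, and TATAAA by 7.32% and 13.6%. A match is a description of these letters and not a measured site.

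The 250 bases before the start are shown 5′ to 3′ on the gene's strand for 5 members, with E2F matches in capitals. Mcm5 (chr8:75109259-75109508, plus strand), Mcm6 (chr1:128359706-128359955, minus strand) and Pola1 (chrX:93632156-93632405, minus strand) are shown because they hold matches in this stretch, at 149, at 110 and 47, and at 138 bases before the start. Mcm2 (chr6:88898781-88899030, minus strand) is shown as a gene that rose in both comparisons below without these letters in its window, and Mcm10 (chr2:5012792-5013041, minus strand) as the 1 member that fell after CCl4. The window of Mcm10 holds none of these letters and has 3 matches to CCAAT.
Mcm5: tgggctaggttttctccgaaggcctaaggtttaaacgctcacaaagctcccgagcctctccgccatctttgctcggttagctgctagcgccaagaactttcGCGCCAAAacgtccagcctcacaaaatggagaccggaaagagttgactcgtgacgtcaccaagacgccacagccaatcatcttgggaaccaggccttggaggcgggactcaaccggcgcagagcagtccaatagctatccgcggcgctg
Mcm6: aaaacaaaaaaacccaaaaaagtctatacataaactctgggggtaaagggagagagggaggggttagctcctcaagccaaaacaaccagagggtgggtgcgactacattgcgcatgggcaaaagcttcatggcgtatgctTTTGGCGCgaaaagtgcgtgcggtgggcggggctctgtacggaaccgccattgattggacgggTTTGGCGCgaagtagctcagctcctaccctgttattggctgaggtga
Pola1: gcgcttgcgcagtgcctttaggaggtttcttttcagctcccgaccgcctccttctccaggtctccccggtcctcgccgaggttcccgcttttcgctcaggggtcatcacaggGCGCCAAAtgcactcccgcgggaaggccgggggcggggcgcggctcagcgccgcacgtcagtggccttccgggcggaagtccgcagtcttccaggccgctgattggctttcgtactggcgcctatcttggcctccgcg
Mcm2: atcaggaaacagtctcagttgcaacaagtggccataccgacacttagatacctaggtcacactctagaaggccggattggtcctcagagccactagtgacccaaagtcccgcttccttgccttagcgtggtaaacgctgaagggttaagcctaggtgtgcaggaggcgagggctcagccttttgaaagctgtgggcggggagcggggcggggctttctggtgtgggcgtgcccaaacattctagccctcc
Mcm10: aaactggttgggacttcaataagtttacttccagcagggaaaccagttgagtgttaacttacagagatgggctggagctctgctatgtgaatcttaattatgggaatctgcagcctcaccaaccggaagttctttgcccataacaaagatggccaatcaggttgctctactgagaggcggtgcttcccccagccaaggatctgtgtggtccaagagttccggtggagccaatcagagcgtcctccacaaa

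Total counts per sample were 4295169 to 5221957 with olive oil, 4738196 to 6218526 with CCl4, and in the surgical experiment 3271398 to 8647503 on day 0 and 2795909 to 4391002 on day 3. Levels are given as CPM (counts scaled to a common library total) with trimmed mean of M values (TMM) factors, and 3 counts in 1 library correspond to 0.372 to 1.02 CPM. Changes are log2 fold changes ± SE with Benjamini-Hochberg adjusted p from the edgeR quasi-likelihood test over all genes, and rose or fell means an adjusted p under 0.05. Each listed hepatocyte gene had counts in every group, as the tissue label says. In bulk tissue, fewer cells that carry a transcript and less transcript per cell cannot be told apart.

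At day 3 after CCl4, members of each of the roles described here rose against olive oil. Of the 40 members that passed the filter on low counts, 31 rose and 1 fell, against 11.3% of all 11337 genes tested that rose and 11.6% that fell. The largest rises were in Gins2, Mcm5, Gins3, Pole, Cdc7, Cdc6, Mcm6 and Lig1, with changes of 3.78 to 4.40. Gins3 and Cdc7 had 2 counts each over the olive oil group, and Cdc6 had 4, 0 and 1 per library. The places of these 3 genes in the order are therefore uncertain. Pole2, with 0 counts with olive oil and 60 with CCl4, did not pass the filter and is not ranked. The median change of the tested members was 1.88, and that of all genes tested was 0.006. In 34 of the 40 tested members every CCl4 sample was above every olive oil sample, against 21.8% of all genes tested. The filter matters for these counts: 24 of the 40 members passed it in the olive oil samples alone, and 16 of those 24 rose, while the other 16 passed only through the CCl4 samples, and 15 of them rose. Scaling by library size alone called 34 members as risen and 1 as fallen, while over all genes it raised the share of calls that were rises from 49.2% to 87.5% and moved the median of all genes to 0.46.

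At day 3 after PH, fewer members were above the PH day 0 liver. Of the 35 tested members 11 rose, against 9.73% of 10546 genes tested. These were Mcm2 to Mcm7, Gins2, Dbf4, Prim1, Rpa1 and Lig1, with changes of 0.39 to 2.63. With edgeR fitted without the replicate number no member fell, against 8.01% of all genes. At an unadjusted p under 0.05, 2 members, Mcm10 and Rfc1, were lower. DESeq2 called 1 member, Mcm10, as fallen where limma-voom called 0, and edgeR with the replicate number as a block also called Mcm10. The median change of the tested members was 0.50, and that of all genes was -0.0053. In 7 of the 35 members every PH day 3 sample was above every PH day 0 sample, against 6.5% of all genes tested. Of the 17 members that passed the filter in PH day 0 samples alone 5 rose, and of the 18 that passed only with PH day 3 samples 6 rose. Library size scaling alone called 13 members as risen, and over all genes it moved the share of rises among calls from 54.8% to 78.9% and the median to 0.13.

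**Figure D1:**
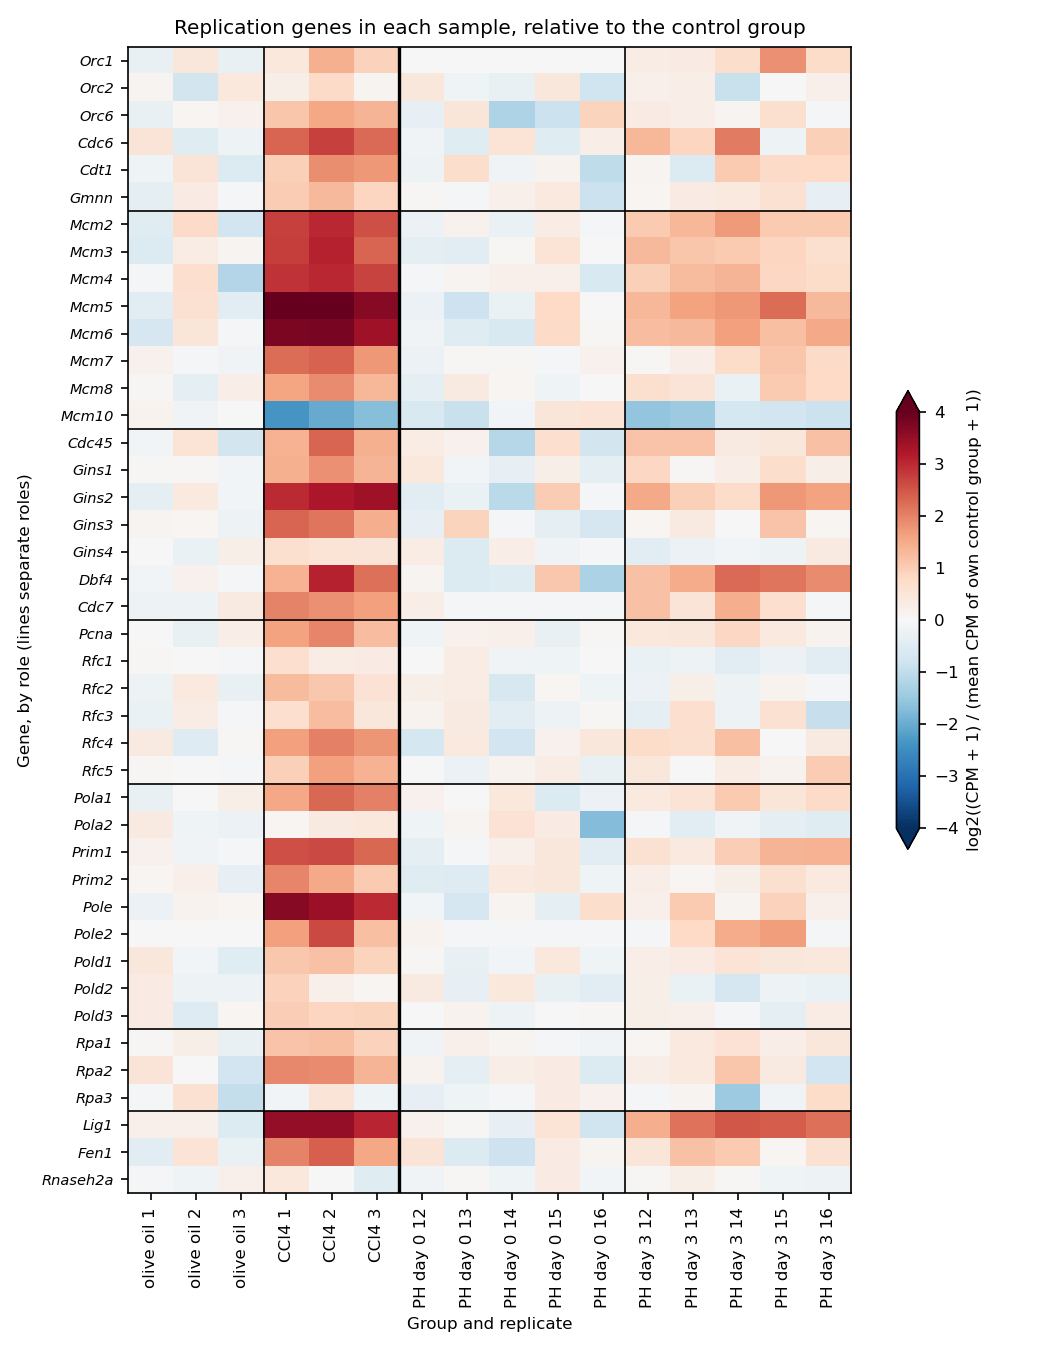
Each row is 1 of the 42 replication genes, grouped by role, and each column 1 sample; colour is log2 of (CPM + 1) divided by (mean CPM of the sample's own control group + 1), olive oil for the injection samples and PH day 0 for the surgical ones. In 34 of the 40 genes tested after CCl4, every CCl4 sample was above every olive oil sample, against 21.8% of all genes tested. In 7 of the 35 genes tested after PH, every PH day 3 sample was above every PH day 0 sample, against 6.5% of all genes.

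The comparison of the responses asks whether replication genes changed by different amounts after toxic and surgical loss of tissue. The model with all 4 groups found a higher response to CCl4 for 12 of 40 tested members, against 1.47% of 11868 genes tested. They were Mcm2 to Mcm7, Pcna, Rfc1, Rfc2, Prim1, Pole and Rpa1, with differences of 0.73 to 3.45. No member had a lower response with edgeR fitted without the replicate number, DESeq2 or limma-voom, against 3.87% of all genes with edgeR, and 1 member, Mcm10, was lower at an unadjusted p under 0.05. With the replicate number as a block, edgeR called Mcm10 as lower (adjusted p = 0.011). The median difference was 1.17 over members and 0.021 over all genes. For all genes, library size scaling alone moved the share of calls with a higher response to CCl4 from 27.5% to 75.9% and the median difference to 0.30. It called 15 members. Leaving out 1 library gave 6 called members without olive oil replicate 1 or PH day 0 replicate 13, 7 without CCl4 replicate 2 or olive oil replicate 3, and 8 to 12 otherwise. The injection and the surgery were separate experiments in the file headers, so experiment and kind of injury cannot be told apart in these differences.

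Of the 35 members tested in both comparisons 11 rose in both, 31.4%, against 4.83% of the 10468 genes tested in both. These 11 are all members that rose after PH, 100% of that list, where 50.1% of the 1010 genes that rose after PH also rose after CCl4. They are 42.3% of the 26 members of this kind that rose after CCl4, against 47.5% of the 1065 genes that did. In 33 of the 35 members tested in both, the fitted change after CCl4 was larger than that after PH. This count was not made over all genes. In the model of all 4 groups, the median difference was 1.17 over members and 0.021 over all genes tested.

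Origin recognition and licensing decide where replication may start. After CCl4, Orc6, Cdc6, Cdt1 and Gmnn rose, Orc2 was not called and Orc1 did not pass the filter. After PH, edgeR called none of the 4 tested genes, and none of them was past an unadjusted p of 0.05 or called by DESeq2 or limma-voom.

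Cdc6, the loader of the MCM ring (ENSMUSG00000017499, chromosome 11, 98907801 to 98923940, plus strand), was at 1.00, 0 and 0.236 CPM in the olive oil samples and at 6.11, 8.30 and 5.74 CPM in the CCl4 samples. Every CCl4 sample was above every olive oil sample, and the change was 4.00 ± 0.69 (adjusted p = 0.0027). The PH day 0 values were 0.267, 0, 1.07, 0 and 0.678 CPM, and those at PH day 3 were 2.49, 1.56, 4.97, 0.23 and 1.69 CPM. It did not pass the filter there, and it was called with no filter (2.44, adjusted p = 0.021) and with a filter of 1 CPM (2.47, adjusted p = 0.031). The day 3 values were above the day 0 range in 4 of 5 samples and inside it in replicate 15.

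Cdt1, the partner of CDC6 in loading (ENSMUSG00000006585, chromosome 8, 122568015 to 122573554, plus strand), went from 3.01, 5.44 and 2.12 CPM with olive oil to 7.79, 15.4 and 14.1 CPM with CCl4, a change of 1.78 ± 0.40 (adjusted p = 0.01). The groups did not overlap, but without olive oil replicate 1 or replicate 3 the adjusted p was 0.0514 and 0.0546. In the surgical experiment it went from 2.53, 5.68, 2.66, 3.48 and 1.02 CPM at day 0 to 3.40, 1.82, 7.46, 5.98 and 6.07 CPM at day 3. These ranges overlapped, and the change of 0.67 ± 0.41 was not called (adjusted p = 0.3).

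Orc2, a core subunit of ORC (ENSMUSG00000026037, chromosome 1, 58462771 to 58505109, minus strand), showed the smallest change of the group in both comparisons. It was at 5.52, 2.61 and 7.07 CPM with olive oil and 6.11, 9.42 and 5.58 CPM with CCl4, with overlapping ranges and a change of 0.46 ± 0.41 (adjusted p = 0.45). PH samples were at 6.93, 4.20, 3.73, 6.95 and 2.37 CPM on day 0 and at 5.66, 5.97, 2.17, 4.83 and 5.73 CPM on day 3, a change of -0.0015 ± 0.31. Its exons share 1150 bases with Nif3l1 on the other strand, and the reads were counted by strand.

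Orc6, the smallest ORC subunit, had changes of 1.51 ± 0.29 after CCl4 (adjusted p = 0.005) and 0.40 ± 0.39 after PH, where it was not called. Gmnn, which encodes geminin, the inhibitor of CDT1, had changes of 1.18 ± 0.30 (adjusted p = 0.017) and 0.31 ± 0.32. Leaving out CCl4 replicate 2, or replicate 1 or 3 of the olive oil group, ended the Gmnn call (adjusted p = 0.069 to 0.08). Orc1, the largest ORC subunit, had a total of 3 counts with olive oil and 29 with CCl4, a ratio of scaled counts of 6.56 with a 95% exact interval of 2.03 to 33.6 that covers counting error only. At PH day 0 Orc1 had 0 counts in all 5 libraries, and at day 3 it had 17, at least 6.80-fold higher against a floor of 3 counts over the group. With no filter Orc1 was called after PH (adjusted p = 0.0095) and not after CCl4 (0.14).

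The genes of the ring, Mcm2 to Mcm7, rose in both comparisons, and Mcm8, a related helicase gene with a part in repair, rose after CCl4. Mcm10, which encodes a factor that helps to activate the ring, fell after CCl4. All 6 ring genes had a larger response to CCl4 than to PH in the model of the difference.

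Mcm5 (ENSMUSG00000005410, chromosome 8, 75109569 to 75128439, plus strand) had the highest change of the group in both comparisons. It was at 1.76, 4.57 and 1.65 CPM with olive oil and at 60.9, 64.6 and 44.5 CPM with CCl4. No CCl4 sample was near the olive oil range, and the change was 4.35 ± 0.34 (adjusted p = 5.4e-05). In the PH day 0 samples it was at 3.87, 2.22, 3.73, 9.04 and 4.74 CPM and in the PH day 3 samples at 13.4, 16.3, 18.0, 26.0 and 13.2 CPM. Every day 3 sample was above the highest day 0 sample, replicate 15, and the change was 1.91 ± 0.29 (adjusted p = 5.6e-05). The difference between the responses was 2.47 ± 0.52 (adjusted p = 0.0079).

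Mcm2 (ENSMUSG00000002870, chromosome 6, 88883474 to 88898780, minus strand) was at 2.51, 7.40 and 1.88 CPM with olive oil and at 31.6, 38.9 and 28.4 CPM with CCl4. The groups were far apart, with a change of 3.01 ± 0.41 (adjusted p = 0.0012). The PH day 0 values were 4.40, 6.18, 4.26, 6.72 and 5.08 CPM, and those at PH day 3 were 12.0, 14.8, 19.6, 12.0 and 12.1 CPM. The groups did not overlap, with a change of 1.42 ± 0.23 (adjusted p = 9.6e-05). The responses differed by 1.62 ± 0.43 (adjusted p = 0.027), a difference that was not called when CCl4 replicate 2, olive oil replicate 1 or 3, or PH day 0 replicate 13 or 15 was left out (adjusted p = 0.0513 to 0.1).

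Mcm6 changed by 3.83 ± 0.28 after CCl4 and 1.49 ± 0.22 after PH, Mcm4 by 3.16 ± 0.42 and 1.20 ± 0.26, Mcm3 by 2.94 ± 0.30 and 1.18 ± 0.25, and Mcm7 by 2.22 ± 0.22 and 0.72 ± 0.21. Mcm7 after PH was the smallest rise of the ring genes, and it was not called without PH day 3 replicate 15 (adjusted p = 0.085), the sample where it was highest at 25.5 CPM. The differences between the responses of Mcm3 to Mcm7 were 1.53 to 2.47, and these 5 calls were kept in every alternative run. Mcm8 changed by 2.24 ± 0.48 after CCl4 (adjusted p = 0.0085), and after PH it did not pass the filter, with 1.07 to 2.47 CPM at day 0 and 1.24 to 4.60 CPM at day 3.

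Mcm10 (ENSMUSG00000026669, chromosome 2, 4989714 to 5012791, minus strand) was at 111, 89.8 and 97.5 CPM with olive oil and at 18.5, 23.9 and 29.7 CPM with CCl4. Every CCl4 sample was below every olive oil sample, and the change was -2.07 ± 0.18 (adjusted p = 6.7e-05). With library size scaling the change of Mcm10 was -1.60 (adjusted p = 0.0011). In the surgical experiment Mcm10 was at 76.5, 62.8, 108, 162 and 172 CPM on day 0 and on day 3 at 38.5, 42, 70.8, 67.4 and 64.1 CPM. Here the ranges overlapped, since day 0 replicate 13 lay below 3 of the day 3 samples, and the change of -1.02 ± 0.34 was not called (adjusted p = 0.078). Among fits that did not use the replicate number, it was called with DESeq2 (adjusted p = 0.018) and without PH day 0 replicate 13 (adjusted p = 0.037). The difference of the responses, -1.02 ± 0.47, was called in none of these fits (adjusted p = 0.26 as fitted here). With the replicate number as a block in edgeR, Mcm10 was called as fallen after PH (-0.96, adjusted p = 8.9e-06). The difference was then called as well (-1.08, adjusted p = 0.011). No other annotated gene overlaps Mcm10, and a count per gene does not show from which exons the reads came.

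Per kilobase of exon, which allows levels to be compared between genes, Mcm10 had the highest mean of the 42 members with olive oil, 12.9 CPM per kb, and at PH day 0, 15.1 CPM per kb. With CCl4 it was 29th at 3.13 CPM per kb, and at PH day 3 it was the third at 7.35 CPM per kb. The mean of Mcm6 went from 1.24 to 18.3 CPM per kb after CCl4 and from 2.02 to 5.64 after PH. Mcm6 was then the highest of the 42 members with CCl4 and the fourth at PH day 3. The ratio of Mcm10 to the mean of the 6 ring genes was 11.3 with olive oil, 0.283 with CCl4, 9.70 at PH day 0 and 1.96 at PH day 3. Within the ring, the highest mean per kilobase was 3.79 times the lowest with olive oil, 3.85 times with CCl4, 3.32 times at PH day 0 and 2.78 times at PH day 3. Mcm2 was the lowest in all 4 groups.

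**Figure D2:**
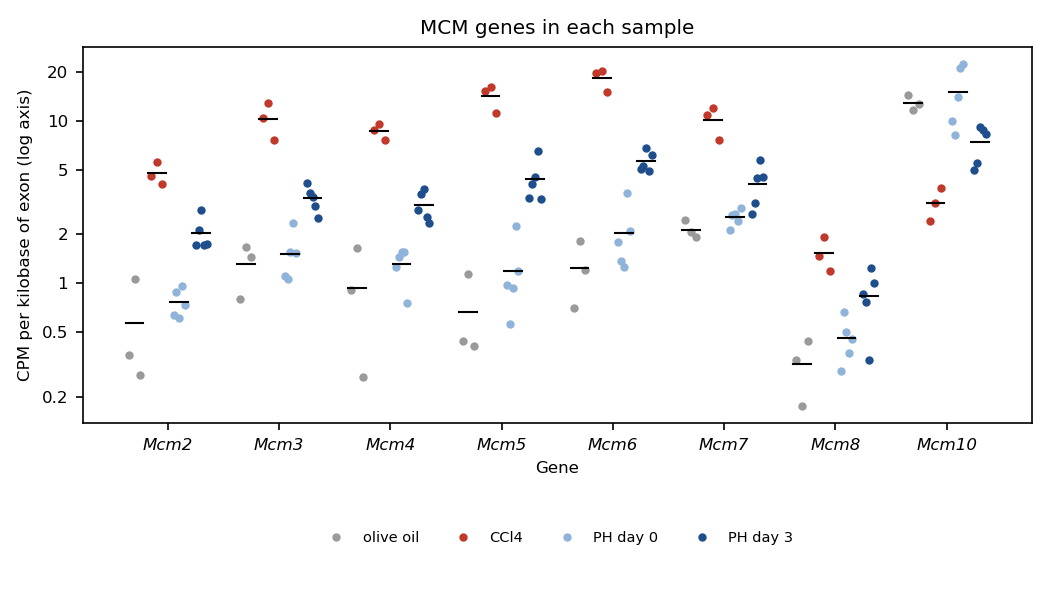
The vertical log axis gives CPM per kilobase of exon, each point is 1 sample, black bars are group means, and colours are the 4 groups. Mcm2 to Mcm7 were highest with CCl4 and next at PH day 3, while Mcm10 was lowest with CCl4, at a mean of 3.13 against 12.9 with olive oil.

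CDC45 and the 4 GINS proteins join the ring to form the working helicase, and the DBF4-dependent kinase (DDK), made of CDC7 and DBF4, is the switch that starts this step. After CCl4, 6 of these 7 genes rose, all but Gins4. After PH, 4 of the 7 were tested, and Gins2 and Dbf4 rose.

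Gins2 (ENSMUSG00000031821, chromosome 8, 120578633 to 120589304, minus strand) had the largest change of the tested members after CCl4. It was at 0.251, 1.09 and 0.471 CPM with olive oil and at 11.6, 14.0 and 15.9 CPM with CCl4, far apart, and the change was 4.40 ± 0.45 (adjusted p = 0.00016). In the surgical experiment it went from 0.533, 0.741, 0, 3.25 and 1.02 CPM at day 0 to 4.98, 3.11, 2.49, 5.98 and 5.40 CPM at day 3. Day 0 replicate 15 reached into the day 3 range, and the change was 2.02 ± 0.54 (adjusted p = 0.01). The difference between the responses was 2.41 ± 0.87 and was not called (adjusted p = 0.11), except with DESeq2 (0.05). Gins2 shares 2758 exon bases with Gse1 on the other strand, and the reads were counted by strand.

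Dbf4, the regulatory subunit of the kinase (ENSMUSG00000002297, chromosome 5, 8396973 to 8422716, minus strand), was at 2.51, 3.26 and 2.59 CPM with olive oil and at 8.84, 30.9 and 16.6 CPM with CCl4. All CCl4 samples were above the olive oil range but differed widely among themselves, and the change was 2.72 ± 0.46 (adjusted p = 0.0031). PH samples were at 3.33, 1.73, 1.86, 7.42 and 0.678 CPM on day 0 and at 7.93, 10.1, 18.3, 16.8 and 13.8 CPM on day 3. The groups did not overlap, although day 0 replicate 15 was close to day 3 replicate 12, and the change was 2.10 ± 0.41 (adjusted p = 0.0017). The difference between the responses was 0.65 ± 0.73 (adjusted p = 0.69).

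Gins4 (ENSMUSG00000031546, chromosome 8, 23226616 to 23237659, minus strand) had the smallest changes of the group. It was at 11.8, 9.79 and 14.1 CPM with olive oil and at 19.0, 18.0 and 17.4 CPM with CCl4. These groups did not overlap, but the change of 0.58 ± 0.21 was not called (adjusted p = 0.075), except with library size scaling (1.03, adjusted p = 0.01). In the PH day 0 samples it was at 15.2, 7.91, 14.9, 10.9 and 11.9 CPM and in the PH day 3 samples at 8.83, 10.1, 11.2, 10.4 and 15.8 CPM, with a change of -0.11 ± 0.22 (adjusted p = 0.79). Per kilobase it was the second highest member with olive oil, at 8.82 CPM per kb, and the highest at PH day 3, at 8.35.

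Gins1 changed by 1.82 ± 0.32 after CCl4 (adjusted p = 0.003) and by 0.57 ± 0.35 after PH, where it was not called. Cdc45 changed by 2.31 ± 0.56 after CCl4 (adjusted p = 0.015), a call that ended when any of the same 3 libraries as for Gmnn was left out (CCl4 replicate 2 and replicates 1 and 3 of the olive oil group, adjusted p = 0.061 to 0.077). After PH Cdc45 did not pass the filter, with 0 to 2.55 CPM at day 0 and 1.86 to 4.05 CPM at day 3. Gins3 had a total of 2 counts with olive oil and 69 with CCl4, a ratio of scaled counts of 23.4 (6.24 to 197), and Cdc7 had 2 and 58, a ratio of 19.7 (5.21 to 166). Both rose after CCl4 (adjusted p = 0.0037 and 0.0073). After PH neither was tested: Cdc7 had 2 counts at day 0 and 17 at day 3, a ratio of 10.2 (2.42 to 91.0), and Gins3 was at 0 to 1.98 CPM and at 0.621 to 2.53 CPM.

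PCNA is the ring that holds polymerases on DNA, and the 5 subunits of replication factor C (RFC) open and close it. Pcna, Rfc2, Rfc4 and Rfc5 rose after CCl4. After PH none of the 6 was called by edgeR, DESeq2 or limma-voom, with 2 higher, Pcna and Rfc4, and 1 lower, Rfc1, at an unadjusted p under 0.05.

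Pcna (ENSMUSG00000027342, chromosome 2, 132249162 to 132253314, minus strand) was at 8.28, 6.53 and 10.1 CPM with olive oil and at 27.6, 34.8 and 21.0 CPM with CCl4. The groups did not overlap, and the change was 1.72 ± 0.26 (adjusted p = 0.0012). The PH day 0 values were 6.80, 8.90, 9.06, 6.26 and 8.13 CPM, and those at PH day 3 were 10.9, 11.2, 14.6, 10.6 and 8.77 CPM. Of the day 3 samples 4 of 5 were above the day 0 range, and the change of 0.55 ± 0.22 was not called (adjusted p = 0.092), except with library size scaling (0.68, adjusted p = 0.035). The responses differed by 1.20 ± 0.32 (adjusted p = 0.028). It was not called when CCl4 replicate 2, olive oil replicate 1 or 2, or PH day 0 replicate 13 or 14 was left out (adjusted p = 0.0513 to 0.11), nor with limma-voom (0.0505).

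Rfc4 (ENSMUSG00000022881, chromosome 16, 23113943 to 23127737, minus strand) had the largest change of the group. It was at 4.01, 1.74 and 3.06 CPM with olive oil and at 11.2, 15.0 and 12.3 CPM with CCl4, without overlap and with a change of 2.11 ± 0.35 (adjusted p = 0.002). In the surgical experiment it went from 1.47, 4.20, 1.33, 3.48 and 4.40 CPM at day 0 to 5.66, 5.19, 8.08, 2.99 and 4.05 CPM at day 3. These overlapped, and the change of 0.86 ± 0.39 was not called (adjusted p = 0.14).

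Rfc1, the large subunit of the loader (ENSMUSG00000029191, chromosome 5, 65261850 to 65335670, minus strand), was at 22.8, 22.0 and 21.2 CPM with olive oil and at 35.4, 27.4 and 27.9 CPM with CCl4. The groups did not overlap, but the change of 0.43 ± 0.17 was not called (adjusted p = 0.1), except with library size scaling (0.86, adjusted p = 0.0084). PH samples were at 25.2, 31.6, 23.4, 22.7 and 25.7 CPM on day 0 and at 21.1, 22.1, 19.0, 21.6 and 18.5 CPM on day 3, every day 3 sample below every day 0 sample, with a change of -0.31 ± 0.14 (adjusted p = 0.16). The difference between the responses, 0.76 ± 0.21, was called (adjusted p = 0.035), although neither response was. It was lost in 7 of 16 fits that left out 1 library (CCl4 replicate 1, each olive oil replicate, PH day 0 replicate 13, and PH day 3 replicates 14 and 16), with adjusted p of 0.0543 to 0.092, and with no filter on low counts (0.073).

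Rfc5 changed by 1.44 ± 0.24 after CCl4 (adjusted p = 0.0024) and 0.49 ± 0.25 after PH. Rfc3 changed by 0.89 ± 0.32 and 0.12 ± 0.32, neither of them called. Rfc3 after CCl4 was called with library size scaling (adjusted p = 0.013), with no filter (0.041) and without CCl4 replicate 1 (0.04). Rfc2 changed by 1.00 ± 0.25 after CCl4 (adjusted p = 0.016) and 0.00014 ± 0.18 after PH, with a difference of 1.03 ± 0.30 (adjusted p = 0.044). Leaving out CCl4 replicate 2, or replicate 1 or 3 of the olive oil group, ended the CCl4 call of Rfc2 (adjusted p = 0.0523 to 0.084), and its difference was lost in 12 of the 16 fits that left out 1 library (adjusted p = 0.0504 to 0.14), all but those without CCl4 replicate 3, olive oil replicate 2, PH day 0 replicate 14 and PH day 3 replicate 13. It was also lost with limma-voom (adjusted p = 0.055).

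Primase and polymerase alpha (Prim1, Prim2, Pola1, Pola2) start each new strand, polymerase epsilon (Pole, Pole2) extends the leading strand and polymerase delta (Pold1 to Pold3) the lagging strand. After CCl4, Pola1, Prim1, Prim2, Pole, Pold1 and Pold3 rose. After PH only Prim1 of the 8 tested was called.

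Pole, the catalytic subunit of polymerase epsilon (ENSMUSG00000007080, chromosome 5, 110286306 to 110337474, plus strand), was at 0.752, 1.31 and 1.18 CPM with olive oil and at 25.1, 21.1 and 15.6 CPM with CCl4. The change was 4.18 ± 0.35 (adjusted p = 6.0e-05), with no CCl4 sample near the olive oil range. In the PH day 0 samples it was at 3.07, 1.73, 3.73, 2.32 and 6.10 CPM and in the PH day 3 samples at 4.08, 8.04, 3.73, 7.36 and 4.05 CPM. Here the ranges overlapped, and the change of 0.76 ± 0.37 was not called (adjusted p = 0.17). The difference between the responses, 3.45 ± 0.56 (adjusted p = 0.00072), was the largest of the members that were called, and it was called in every alternative run. The control groups of Pole also differed, with means of 0.097 CPM per kb with olive oil and 0.304 at PH day 0.

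Prim1, the catalytic subunit of primase (ENSMUSG00000025395, chromosome 10, 128015168 to 128030037, plus strand), was at 3.76, 2.83 and 3.06 CPM with olive oil and at 24.4, 25.2 and 19.5 CPM with CCl4, a change of 2.81 ± 0.25 (adjusted p = 7.8e-05). The PH day 0 values were 2.13, 2.97, 3.73, 4.64 and 2.03 CPM, and those at PH day 3 were 5.21, 4.41, 7.15, 9.43 and 9.78 CPM. Day 3 replicate 13 lay just below the highest day 0 sample, and the change was 1.23 ± 0.34 (adjusted p = 0.012). The difference between the responses was 1.61 ± 0.45 (adjusted p = 0.034) and was lost in 9 of 16 fits that left out 1 library (adjusted p = 0.0501 to 0.088) and with limma-voom (0.063). The 9 libraries were CCl4 replicate 2, the 3 olive oil samples, PH day 0 replicates 13, 14 and 15, and PH day 3 replicates 12 and 13.

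Pola2, the accessory subunit of polymerase alpha (ENSMUSG00000024833, chromosome 19, 5940543 to 5964206, minus strand), had the lowest change of the group in both comparisons. It was at 10.8, 7.18 and 6.83 CPM with olive oil and at 8.84, 10.8 and 11.3 CPM with CCl4, with a change of 0.30 ± 0.28 (adjusted p = 0.48). In the surgical experiment it went from 6.93, 8.65, 12.3, 10.2 and 1.69 CPM at day 0 to 7.47, 5.71, 7.15, 5.75 and 5.40 CPM at day 3, with a change of -0.32 ± 0.33 (adjusted p = 0.56). Both pairs of groups overlapped. The catalytic subunit of the same enzyme, Pola1, changed by 2.27 ± 0.33 after CCl4 (adjusted p = 0.001) and 0.89 ± 0.37 after PH (adjusted p = 0.11).

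Prim2, the regulatory subunit of primase, changed by 1.86 ± 0.41 after CCl4 (adjusted p = 0.0089) and 0.47 ± 0.35 after PH. Of polymerase delta, the catalytic Pold1 changed by 1.24 ± 0.38 (adjusted p = 0.039) and 0.50 ± 0.31, and Pold3 by 0.96 ± 0.25 (adjusted p = 0.02) and 0.10 ± 0.21. Pold2 changed by 0.47 ± 0.33 and -0.21 ± 0.24, neither called. Leaving out replicate 2 or 3 of either group ended the CCl4 call of Pold1 (adjusted p = 0.069 to 0.13). For Pold3 the same held for CCl4 replicate 2 and for replicates 2 and 3 with olive oil (adjusted p = 0.0503 to 0.069). Pole2, the second subunit of polymerase epsilon, had 0 counts in the 3 olive oil libraries and 60 in the CCl4 libraries, at least 13.6-fold higher against a floor of 3 counts over the group. After PH it had 1 count at day 0 and 19 at day 3, a ratio of 22.8 (3.63 to 948), and day 3 replicates 12 and 16 had none. With no filter Pole2 was called after CCl4 (adjusted p = 1.8e-05) and after PH (0.024). Pole2 shares 245 exon bases with Gm49384 on the same strand, where reads were not counted for either gene.

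Replication protein A (RPA), a trimer of RPA1, RPA2 and RPA3, coats the DNA strand that the helicase exposes. Rpa1 and Rpa2 rose after CCl4, and Rpa1 after PH.

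Rpa2 (ENSMUSG00000028884, chromosome 4, 132768332 to 132778752, plus strand) was at 8.28, 5.44 and 2.83 CPM with olive oil and at 23.8, 23.0 and 15.8 CPM with CCl4. The groups did not overlap, and the change was 1.90 ± 0.35 (adjusted p = 0.0037). PH samples were at 7.20, 4.70, 7.99, 8.34 and 4.07 CPM on day 0 and at 7.93, 8.82, 15.2, 8.51 and 3.37 CPM on day 3, with overlap and a change of 0.45 ± 0.31 (adjusted p = 0.36). Rpa3 (ENSMUSG00000012483, chromosome 6, 8255936 to 8259173, minus strand) was at 3.51, 6.09 and 1.41 CPM with olive oil and at 3.37, 5.70 and 3.12 CPM with CCl4, a change of 0.13 ± 0.52 (adjusted p = 0.89). With PH, Rpa3 was at 1.87, 2.22, 2.40, 3.48 and 3.05 CPM on day 0 and on day 3 at 2.49, 2.85, 0.311, 2.30 and 5.06 CPM, a change of 0.03 ± 0.45 (adjusted p = 0.97). For Rpa3 the injured and control ranges overlapped in both experiments.

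Rpa1 changed by 1.09 ± 0.18 after CCl4 (adjusted p = 0.0018) and 0.39 ± 0.13 after PH (adjusted p = 0.038), with a difference of 0.73 ± 0.21 (adjusted p = 0.04). The PH call was lost in 6 of 10 fits that left out 1 library, those without PH day 0 replicate 12, 15 or 16 or PH day 3 replicate 13, 14 or 16 (adjusted p = 0.069 to 0.11), and with no filter (0.062). The call of the difference was lost in 10 of 16 such fits (adjusted p = 0.0505 to 0.14), all but those without CCl4 replicate 3, olive oil replicate 2, PH day 0 replicates 12 and 16, and PH day 3 replicates 14 and 16.

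RNase H2, of which RNASEH2A is the catalytic subunit, and the nuclease FEN1 remove primers, and DNA ligase 1 (LIG1) seals the nicks. Lig1 rose in both comparisons and Fen1 after CCl4.

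Lig1 (ENSMUSG00000056394, chromosome 7, 13277283 to 13311433, plus strand) was at 3.01, 3.05 and 1.41 CPM with olive oil and at 39.2, 39.0 and 27.6 CPM with CCl4, far apart, with a change of 3.78 ± 0.30 (adjusted p = 4.7e-05). In the PH day 0 samples it was at 2.27, 1.98, 1.33, 3.25 and 0.678 CPM and in the PH day 3 samples at 7.02, 12.2, 15.2, 14.5 and 12.5 CPM. The day 3 samples were all above the day 0 samples, and the change of 2.63 ± 0.33 (adjusted p = 2.8e-06) was the largest of the tested members after PH. Its difference of responses, 1.19 ± 0.48, was not called (adjusted p = 0.16).

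Rnaseh2a (ENSMUSG00000052926, chromosome 8, 84956610 to 84969767, minus strand) was at 21.3, 19.8 and 25.7 CPM with olive oil and at 30.1, 22.7 and 15.6 CPM with CCl4. It was at 15.9, 18.3, 15.5, 22.5 and 16.3 CPM at PH day 0 and at 18.3, 21.0, 18.3, 15.6 and 15.2 CPM at PH day 3. Injured and control samples overlapped in both experiments, with changes of 0.0045 ± 0.25 (adjusted p = 0.99) and 0.027 ± 0.17 (adjusted p = 0.94). Rnaseh2a shares 339 exon bases with Gm49661 on the same strand, where reads were not counted for either gene. Fen1 changed by 2.19 ± 0.36 after CCl4 (adjusted p = 0.002) and 0.84 ± 0.34 after PH. The latter was not called (adjusted p = 0.089), except with library size scaling (0.038) and without PH day 0 replicate 12 (0.0489).

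**Figure D3:**
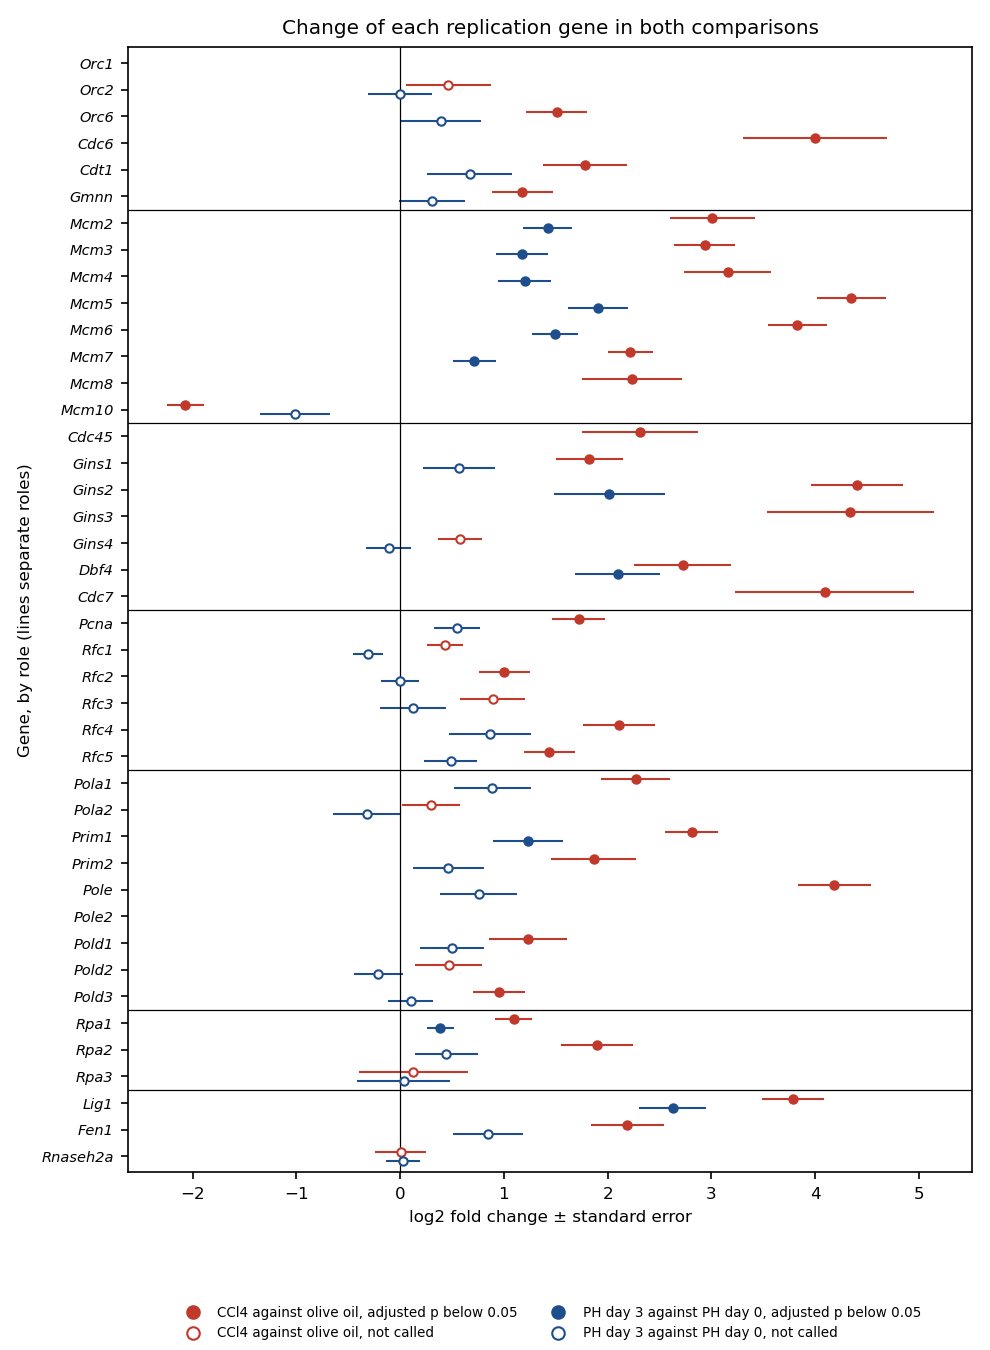
The horizontal axis gives the log2 fold change with its standard error for each replication gene, red for CCl4 against olive oil (n = 3 and 3) and blue for PH day 3 against PH day 0 (n = 5 and 5), filled where the adjusted p was under 0.05; genes with no point did not pass the filter on low counts. Red points lie to the right of blue ones in 33 of the 35 genes tested in both, a count not made over all genes. Mcm10 is the 1 gene called to the left of 0.

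The 8 members tested in both comparisons and called in neither were Orc2, Gins4, Rfc1, Rfc3, Pola2, Pold2, Rpa3 and Rnaseh2a. Per kilobase several of them were among the highest members in control liver. Gins4 and Rnaseh2a were the second and the third with olive oil, at 8.82 and 6.34 CPM per kb, and Pold2 the fifth at 4.49. Rfc1, Rpa3, Pola2, Rfc3 and Orc2 were 7th, 9th, 11th, 18th and 21st. Other members of high rank with olive oil were called after CCl4. Mcm10, the first, fell, and Rpa1, Gmnn and Pcna, 4th, 6th and 8th, rose. Members near 0 in control liver, such as Gins3, Cdc7 and Pole2, were at 0.0576, 0.0375 and 0 CPM per kb with olive oil. A member can be in this group of 8 only if it passed the filter in both experiments.

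The CCl4 samples differed among themselves more for some members than for others. Of the 42 members 27 were highest in CCl4 replicate 2, 12 in replicate 1 and 3 in replicate 3. Neither these counts nor the ratios below were worked out over all genes, so they are not particular to the members. Replicate 2 was also the deepest CCl4 library, with 6218526 counts against 4815180 and 4738196. The ratio of CPM in replicate 1 to replicate 2 had a median of 0.817 over the members, and it was 0.943 for Mcm5 and 0.812 for Mcm2. For Dbf4 it was 0.287 and for Cdc45 0.486. Outside the members, the ratio was 0.344 for Mki67, a marker of dividing cells, 0.376 for Ccnb1, the mitotic cyclin B1, 0.326 for Ccna2, the S and G2 phase cyclin A2, and 0.603 for Top2a, the topoisomerase of chromosome separation. Without CCl4 replicate 1, 32 members rose and 1 fell, where 14.28% of all genes tested rose and 15.64% fell. This was the highest count of risen members among the 6 fits that left out 1 library. The lowest was 25 without olive oil replicate 3, where 5.98% of all genes rose.

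At PH day 0, replicate 15 had the highest summed level of the members, 460.8 CPM against 334 to 411 in the other 4 samples. It held the highest day 0 value of 17 of the 42 members, among them Mcm2, Mcm3, Mcm5, Mcm6, Gins2, Dbf4, Prim1 and Lig1. The same count was not made over all genes. At PH day 3 the members summed to 387 to 489 CPM. With olive oil the sum was 320 to 353 CPM and with CCl4 741 to 994 CPM. These sums include Mcm10, at 62.8 to 172 CPM at PH day 0, with 162 CPM in replicate 15, and 38.5 to 70.8 CPM at PH day 3. Mcm10 was at 89.8 to 111 CPM with olive oil and at 18.5 to 29.7 CPM with CCl4. Its fitted change was negative in both comparisons, so the sums understate the change of the other members together.

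Related gene lists place the members beside other replication and cell cycle genes. Of 28 tested of 29 other replication factors 11 rose after CCl4, with a median change of 0.65, which is the same with Clspn and Ticrr, both without counts in olive oil, set to their bounds. Of 24 tested after PH 4 rose, with a median of 0.087. Leaving out 1 library gave 8 to 12 risen after CCl4, and 2 to 5 after PH, with 2 without PH day 0 replicate 12 or 15 or PH day 3 replicate 14, 15 or 16. Topbp1, which helps to activate the helicase, went from 8.78, 7.40 and 9.42 to 44.9, 36.3 and 31.3 CPM after CCl4 (2.11 ± 0.21, adjusted p = 0.00015). After PH Topbp1 went from 11.2, 12.6, 10.7, 13.7 and 9.49 to 15.9, 14.3, 19.6, 20.5 and 18.5 CPM (0.64 ± 0.18, adjusted p = 0.014). In both experiments the groups of Topbp1 did not overlap. Clspn, the checkpoint mediator claspin, had no counts in the olive oil libraries and 158 in the CCl4 libraries (12.0, 8.30 and 5.58 CPM), at least 35.7-fold higher against a floor of 3 counts over the group. Rnaseh2b, a partner subunit of RNASEH2A, went from 5.87, 3.21, 3.20, 4.64 and 4.74 to 10.6, 8.30, 8.70, 9.43 and 9.10 CPM after PH, without overlap (1.09 ± 0.26, adjusted p = 0.0042).

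Of 17 regulators of the G1/S step and S phase, 10 rose and 1 fell after CCl4, with a median change of 1.66, and 4 of 13 rose after PH, with a median of 0.43. The count of risen regulators after CCl4 was 6 without olive oil replicate 1 and 5 without replicate 3. Ccna2 went from 0.502, 0.218 and 0.471 to 29.7, 91.1 and 64.5 CPM after CCl4 (7.20 ± 0.64, adjusted p = 0.00041) and from 1.47, 0.989, 3.73, 1.62 and 1.69 to 22.4, 22.8, 27.3, 36.8 and 24.3 CPM after PH (3.86 ± 0.27, adjusted p = 4.9e-10). In both experiments the injured samples were far above the controls. Fbxo5, an inhibitor of the anaphase-promoting complex, went from 0.251, 0.218 and 0.471 to 5.48, 5.33 and 2.79 CPM after CCl4 (3.74 ± 0.64, adjusted p = 0.0025). Dtl, the adaptor through which CUL4 ligases degrade CDT1, went from 0.80, 1.24, 0, 0.695 and 0.678 to 3.62, 4.67, 3.73, 4.60 and 3.71 CPM after PH (2.51 ± 0.47, adjusted p = 0.00042). Fbxo5 and Dtl did not overlap between these groups. Cul4a, a scaffold of those ligases, went from 93.8, 102 and 89.0 to 73.3, 70.4 and 64.8 CPM after CCl4 (-0.48 ± 0.13, adjusted p = 0.026). The Cul4a call was lost in 5 of 6 fits that left out 1 library, all but that without CCl4 replicate 1 (adjusted p = 0.06 to 0.091), and with library size scaling (-0.032, adjusted p = 0.91).

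Of the repair and translesion polymerases and ligases, 1 of 15 rose after CCl4, with a median change of 0.070. After PH none of 14 rose with edgeR, DESeq2 or limma-voom or at an unadjusted p under 0.05, with a median of 0.036. The risen gene, Polq, tested after CCl4 only, which encodes polymerase theta of end joining, had no counts in olive oil and 85 with CCl4 (3.79, 6.44 and 2.46 CPM), at least 19.2-fold higher. After PH, Polq had 2 counts at day 0 and 41 at day 3, a ratio of 24.6 (6.39 to 210), and it was called with no filter on low counts (adjusted p = 0.00015). Mad2l2, a subunit of polymerase zeta, was next by adjusted p, at 13.0, 10.9 and 10.8 CPM with olive oil and 20.4, 14.7 and 16.2 CPM with CCl4 (0.53 ± 0.22, adjusted p = 0.11). After PH the smallest adjusted p were those of Polh (0.53 ± 0.28, adjusted p = 0.23), which went from 5.07, 3.46, 6.93, 5.79 and 6.78 to 4.53, 9.60, 9.32, 9.66 and 6.41 CPM, and of Polb (0.26 ± 0.17, adjusted p = 0.34), which went from 20.3, 14.6, 16.5, 12.3 and 19.3 to 20.6, 23.9, 15.8, 17.7 and 19.9 CPM. Polymerase eta (Polh) copies past damage and polymerase beta (Polb) acts in base excision repair, and for both the groups overlapped.

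The 3 proliferation markers rose in both comparisons. Top2a went from 0.251, 0.218 and 0.942 to 61.3, 102 and 70.6 CPM after CCl4 (7.28 ± 0.39, adjusted p = 1.5e-05) and from 2.53, 0.989, 3.73, 1.16 and 2.03 to 17.2, 26.7, 36.7, 54.8 and 31.0 CPM after PH (3.98 ± 0.37, adjusted p = 4.7e-06). Ccnb1 had 1 count with olive oil and 245 with CCl4, and 1 at PH day 0 and 155 at PH day 3. Its CPM were 6.95, 18.5 and 10.3 with CCl4 and 4.08, 4.41, 11.2, 9.43 and 14.5 at PH day 3. Mki67 changed by 5.97 ± 0.51 and 4.87 ± 0.50. The injured samples of all 3 markers were above all controls.

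**Figure D4:**
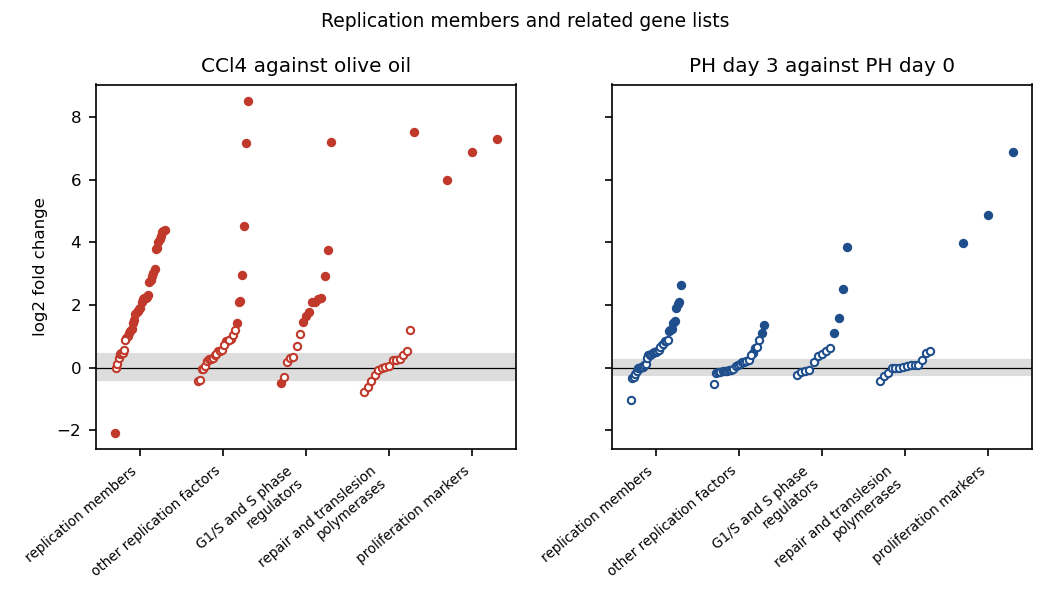
Points are log2 fold changes of the tested genes of each list, sorted within the list, filled where the adjusted p was under 0.05; the grey band spans the middle 50% of all genes tested and the line is their median. The 31 risen and 1 fallen members after CCl4 and the 11 risen members after PH are at the left of each panel, and genes with few or no control counts, such as Clspn and Polq, lie at heights that depend on the prior count of the fit.

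Members with and without an E2F match in the promoter window were set side by side, without a test of the difference. After CCl4, 13 of 15 tested members with a match rose, with a median change of 2.24, and 11 of 17 members with a promoter but no match rose and 1 fell, with a median of 1.72. After PH, 6 of 12 and 3 of 15 rose, with medians of 0.69 and 0.45. Of all genes tested, 11.3% rose after CCl4 and 9.73% after PH. Gmnn, Mcm4, Gins1, Gins2, Gins4, Rfc2, Prim2 and Pole had no promoter matched by symbol and are in neither group. All of these but Gins4 rose after CCl4, with Gins2 the largest change of the tested members, and Mcm4 and Gins2 rose after PH. Pola2 holds a match 37 bases after the start and was called in neither comparison, while Mcm2, Prim1 and Dbf4 rose in both without these letters in their windows.

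A head-to-head neighbour was defined as a gene on the other strand whose start lies within 1000 bases of the start of a member, and 13 of 21 such genes were tested. After CCl4, none of the 13 rose with edgeR, DESeq2 or limma-voom, with 1 (Prpf38a) at an unadjusted p under 0.05, and 1 fell. Of all genes tested, 11.3% rose and 11.6% fell with edgeR. After PH none rose by any of these measures, and 1 fell, against 9.73% and 8.01% of all genes with edgeR. Counts this small among 13 genes do not set the neighbours apart from all genes. The fallen gene in both was Pxmp2, which starts 120 bases from Pole and encodes a peroxisomal membrane protein. Pxmp2 went from 127, 143 and 123 to 73.3, 87.8 and 77.6 CPM after CCl4 (-0.75 ± 0.14, adjusted p = 0.004) and from 145, 115, 119, 126 and 118 to 84.2, 111, 93.2, 84.4 and 83.3 CPM after PH (-0.43 ± 0.10, adjusted p = 0.0027). In both, injured samples lay below all controls, and with library size scaling the CCl4 call was lost (-0.29, adjusted p = 0.32).

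The other 12 tested neighbours were not called in either comparison. Their changes after CCl4 and PH were 0.76 and -0.063 for Prpf38a (beside Orc1), 0.18 and 0.12 for Vps35 (Orc6), -0.18 and -0.15 for Prkdc (Mcm4), -0.58 and -0.44 for Ap4m1 (Mcm7), and 0.40 and -0.38 for Trmt6 (Mcm8). They were 0.027 and -0.014 for Ufd1 (Cdc45), 0.10 and -0.081 for Abhd12 (Gins1), 0.20 and -0.079 for Slc25a40 (Dbf4) and 0.70 and 0.26 for Smyd4 (Rpa1). They were -0.38 and -0.11 for Umad1 (Rpa3), -0.051 and 0.0031 for Tmem258 (Fen1) and -0.23 and 0.12 for Prdx2 (Rnaseh2a). The members beside Vps35, Prkdc, Ap4m1, Trmt6, Ufd1, Abhd12, Slc25a40, Smyd4 and Tmem258 all rose after CCl4.

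Markers of cell types moved with the groups, and their part in the changes of the members was not tested. Of all genes tested, 11.3% rose after CCl4 and 9.73% after PH. Stellate cell and fibroblast markers summed to 105 to 154 CPM with olive oil, 409 to 1009 with CCl4, and went from 111 to 216 on day 0 of PH to 218 to 777 on day 3, with 6 of 8 risen after CCl4 and 4 of 8 after PH. Each of these 4 PH calls (Col1a1, Col1a2, Col3a1 and Pdgfrb) was lost in 3 to 5 of 10 fits that left out 1 library (adjusted p = 0.0511 to 0.12). Macrophage and monocyte markers summed to 112 to 317, 266 to 383, 147 to 219 and 133 to 252 CPM in the same order, with 3 of 8 tested risen after CCl4, none of 6 after PH by edgeR, DESeq2, limma-voom or an unadjusted p under 0.05, and Ly6c2 without counts in olive oil. Of the 3 CCl4 calls, Cd68 was lost in 3 and Lyz2 in 4 of 6 fits that left out 1 library (adjusted p = 0.055 to 0.12). Cholangiocyte markers summed to 53.4 to 107, 174 to 295, 78.1 to 178 and 138 to 244 CPM, with 1 of 2 tested risen after CCl4. Erythroid markers summed to 280 to 312, 68.0 to 125, 447 to 1039 and 360 to 884 CPM, with 3 of 3 tested fallen after CCl4 and 1 of 3 after PH. Endothelial markers summed to 90.7 to 100.1, 89.7 to 106, 136 to 175 and 94.4 to 159 CPM, with 1 of 6 risen after CCl4 and 2 of 6 fallen after PH. The CCl4 call, that of Lyve1, was lost in 2 of 6 fits that left out 1 library (adjusted p = 0.074 to 0.086). Hepatocyte markers summed to 98671 to 108060, 91758 to 118130, 76936 to 91027 and 110820 to 130950 CPM, with every PH day 3 sample above every PH day 0 sample. Of 7 hepatocyte markers none was called after CCl4 by edgeR or limma-voom, with Ttr lower at an unadjusted p under 0.05 and 2 called as fallen by DESeq2, and 1 rose and 1 fell after PH. Lymphocyte markers summed to at most 7.77 CPM and neutrophil markers to at most 43.2 CPM in any library, with Cd3e, Nkg7 and Ly6g without counts in olive oil, Cd3d in CCl4, Cd8a, Mpo and Ly6g at PH day 0, and Cd3d, Nkg7, Mpo and Ly6g at PH day 3.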

How the data were processed

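Polyadenylated RNA of 16 snap-frozen mouse liver samples was sequenced from Illumina mRNA libraries, per the labels' protocols. The authors deposited raw counts of reads for each gene in each sample. Counting used featureCounts 1.6.2 over exons of each gene of Ensembl release 95 on GRCm38, reverse-stranded, with no option to count reads that map to several places or overlap several genes, per the file headers. STAR 2.5.1 and Subread are named per the submitters' processing notes. The headers name 1 flow cell lane for all libraries and 2 experiments. Symbols from GENCODE M21 matched 54723 of 54838 gene identifiers.

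Genes were kept by filterByExpr (minimum count 10, minimum total 15), scaled by TMM factors and tested with edgeR 4.0.16 in R 4.3.3 (robust quasi-likelihood F test). Each injury had a fit of its own against its control, and their difference came from a fit of all 16 samples. SEs were derived from the fold change and its F statistic (|log2 fold change| over the root of F). Intervals (95%, exact) and floors (3 counts) cover counting error only. Alternatives were DESeq2 1.42.0, its size factors in edgeR, library size only, limma-voom (limma 3.58.1), no filter, a filter of 1 CPM, a replicate block, and leaving out each sample in turn. The edgeR script was tested on simulated counts with 200 changed genes.

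The 42 members and the lists of other replication factors, G1/S and S phase regulators, repair and translesion polymerases, proliferation markers and cell type markers were chosen with earlier results of these data known. Within each role, members with the highest and the lowest change in either comparison, Pcna, Mcm2 and fallen members are given sample by sample. Of the related lists, the 2 genes of smallest adjusted p per comparison and fallen genes are named, and of the neighbours all that were tested. Other genes beside a small count were named after their values were seen. Tables and figures used Python 3.11.15, pandas 2.3.3 and matplotlib 3.10.9.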

Additional observations from a re-analysis of the deposited data

Results flagged for a closer look

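For 12 members, the model of all 4 groups found a larger response to CCl4 than to PH (edgeR, adjusted p under 0.05). The difference in log2 fold change was 3.45 for Pole, 2.47 for Mcm5, 2.36 for Mcm6, 1.98 for Mcm4, 1.79 for Mcm3, 1.62 for Mcm2, 1.61 for Prim1 and 1.53 for Mcm7. It was 1.20 for Pcna, 1.03 for Rfc2, 0.76 for Rfc1 and 0.73 for Rpa1. Of these, Pole and Mcm3 to Mcm7 were called in every alternative run.

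Among 83 sets of PH samples tested for 1 value far from the others, 5 had one. The nominal rate of 1 in 20 cannot be applied here, because several sets hold few or 0 counts and all come from the same libraries. Orc1 at PH day 3 was at 2.53 CPM in replicate 15, and Gins3 at PH day 3 was at 2.53 CPM in the same replicate. Gins3 at PH day 0 was at 1.98 CPM in replicate 13. Cdc7 and Pole2 at PH day 0 were at 0.267 and 0.133 CPM in replicate 12, where the other 4 libraries had no counts. All 5 values are of members that did not pass the filter on low counts after PH.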

How the results depend on the processing

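Of 1995 values of single members under an alternative, 1850 kept direction and side of the threshold, 81 lost the call, 18 gained one and 46 changed sign, all of the last in comparisons where the member was not called. For calls that changed, the cause was not tested beyond what the text gives. Depth limits members with few counts in control liver: the filter left out Orc1 and Pole2 in both experiments and Cdc6, Mcm8, Cdc45, Gins3 and Cdc7 after PH. With no filter, Pole2 after CCl4 and Orc1, Cdc6 and Pole2 after PH were called, and Orc1 after CCl4 (adjusted p = 0.14), Mcm8 (0.28), Cdc45 (0.11), Gins3 (0.51) and Cdc7 (0.077) after PH were not.

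With library size scaling, risen and fallen genes numbered 2973 and 423 after CCl4 against 1279 and 1320, 1617 and 432 after PH against 1026 and 845, and higher and lower responses to CCl4 481 and 153 against 174 and 459. The median CPM of the members with CCl4 was 19.8 against 16.5. Under that scaling 3 neighbouring genes rose and 0 fell after CCl4, and with DESeq2 size factors 1 rose. DESeq2 called 279 genes with a higher response to CCl4 and 1 member as fallen after PH. Sign changes were Rnaseh2a after CCl4 with limma-voom (-0.060) and with a filter of 1 CPM (-0.0042), and in the difference with limma-voom (-0.071). After PH they were Orc2 with DESeq2 size factors (0.0016), library size (0.14) and DESeq2 (0.0046), Gins4 with library size (0.032), Rpa3 with limma-voom (-0.18), and Rfc2 with no filter (-0.024) and a filter of 1 CPM (-0.0089).

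Leaving out 1 library gave 5.98% (without olive oil replicate 3) to 14.28% of all genes as risen and 6.67% to 15.64% as fallen after CCl4, with 0 to 1 risen and 1 to 2 fallen neighbours. The shares were lower than 11.3% risen by over 1.5 times without CCl4 replicate 2 (6.88%), olive oil replicate 1 (6.7%) and olive oil replicate 3. After PH it gave 0 to 1 fallen members and 1 to 2 fallen neighbours. In the difference it gave 6 members (without olive oil replicate 1 or PH day 0 replicate 13) to 12, with 0.65% (without olive oil replicate 3) to 2.0% of all genes as higher and 2.48% to 5.63% as lower. Risen members were 25 (without olive oil replicate 3) to 32 after CCl4 and 10 to 11 after PH. Signs changed within the ranges of Rpa3 (-0.27 to 0.70) and Rnaseh2a (-0.23 to 0.22) after CCl4. After PH they changed for Orc2 (-0.15 to 0.17), Rfc2 (-0.13 to 0.083), Rfc3 (-0.097 to 0.30), Rpa3 (-0.30 to 0.29) and Rnaseh2a (-0.042 to 0.12), and in the difference for Cdc7 (-0.95 to 3.77), Rpa3 (-0.25 to 0.72) and Rnaseh2a (-0.24 to 0.23).

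The labels do not say whether a replicate number of the PH samples marks the same mouse on both days. Correlations of same-numbered samples were -0.046 to 0.11 over 5 pairs, and 2 of 5 samples correlated best with their own number. With so few samples this check cannot settle whether the samples are paired. With the replicate number as a block, 11 members rose and 1 fell after PH, Mcm10 (-0.96, adjusted p = 8.9e-06), and in the difference 9 members had a higher and 1, Mcm10, a lower response to CCl4 (-1.08, adjusted p = 0.011). The calls of the difference that the block ended were those of Mcm2 (adjusted p = 0.056), Rfc1 (0.0548) and Rfc2 (0.0548). Under the block Orc2 (0.021) and Rpa3 (-0.070) changed sign.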
